A study of Saccharomyces cerevisiae with 8 samples.

Results

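The T3-specific start bins are the 100-nt stretches of the yeast genome in which transcripts began far more often in cells returning to growth than in any other stage. The 5′ ends of sequenced molecules were counted in 100-nt bins on each strand of the 16 chromosomes and scaled to counts per 1000000 molecules of the library (CPM). A bin was a member if it held at least 5 CPM in both T3 replicates and if its mean in T3, with 1 CPM added, was at least 3 times that of pm, T1 and T2. The members were thus chosen by their T3 level against that of the other stages. This rule took 1324 of the 99030 bins with a 5′ end, and 24.4% of the 5425 bins at 5 CPM or more in both T3 replicates. Since the T3 level chose the members, their excess in T3 over the other stages is given as a description, with no test.

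Transcript isoform sequencing (TIF-seq) reads the capped 5′ end and the polyadenylated 3′ end of one RNA molecule as a pair, so that each transcription start site (TSS) is tied to its end site (TES). Each of the 4 stages was a pool of time points with 2 replicates. All 8 libraries came from the SK1 diploid FW2795, in which IME1 is driven by the CUP1 promoter and NDT80 by the GAL promoter with a Gal4-estrogen receptor fusion. Cells starved in sporulation medium (SPO) received 50 µM CuSO4 at 2 h, to start meiosis through Ime1, and 1 µM β-estradiol at 6 h, to start the meiotic divisions through Ndt80. The pm pool covered 0 to 2 h in SPO, T1 3 to 6 h, and T2 7 to 9 h. T3 cells were moved at 6 h in SPO, in parallel with the β-estradiol step, to the rich medium YPD and pooled from 15 to 120 min. IME1 and NDT80 are thus not under their own promoters in any stage, and a stage is a mixture of times.

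Budding yeast that has begun meiosis but has not committed to the divisions can go back to the mitotic cycle when glucose and nitrogen are restored. Rich medium is known to switch on genes for ribosomes, translation and fermentation, and cells then shut off the early meiotic programme. A gene can answer by raising its usual TSS or by moving to another one, and the paired 5′ and 3′ ends of TIF-seq distinguish these outcomes. The bins are given by their coordinates in the SK1 assembly that the molecules were aligned to, without gene names.

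The libraries held 552357 to 1820826 yeast molecules, and 1 molecule was worth 1.17 CPM in T3 replicate 1 and 1.81 CPM in replicate 2. The weakest members therefore rest on few molecules, at the lowest 5 and 3 in the T3 replicates, and 494 of the 1324 had fewer than 10 in one of them. Within T3, 82.1% of the members were within 2-fold between the replicates, and the median absolute log2 ratio was 0.50. Spike-in RNAs made up 0.0874% to 0.241% of the molecules. Of the LYS spike-in molecules, 79.7% in T3 replicate 1 and 73.1% in replicate 2 began within 5 nt of the expected 5′ position. In the other libraries this share was 43.2% to 87.5%, and the remainder started elsewhere in the RNA. Of the PHE spike-in molecules 44.6% and 27.0% did so in T3, and 19.6% to 82.5% in the other libraries.

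In T3 the member bins carried about as many molecules as all other starts. They held 49.1% and 50.5% of the T3 molecules in replicates 1 and 2. In pm they held 9.14% and 7.82%, in T1 3.77% and 3.52%, and in T2 1.92% and 2.75%. Thus both T3 libraries stood apart from the 6 others, and pm lay above both meiotic pools in each replicate. CPM is a share of a library. A lower level in these pools of cells can mean less RNA per cell or fewer cells with the RNA, which cannot be told apart.

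The T3 level of a member ranged from 5.63 to 22350 CPM, with a median of 26.9 CPM. The 10 highest members held 23.2% of the members' total T3 level and the 100 highest 79.5%, so that a minority of strong starts made most of the RNA. Members at 1000 CPM or more numbered 108. The ratio to the next highest stage, with 1 CPM added to each, had a median of 5.66 and ran from 3.01 to 87.8, and 241 members were at 10 or more. Plotted against the next highest stage, the members formed a band above the 3-fold line that reached from starts absent elsewhere to starts already strong in starved cells.

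**Figure D1:**
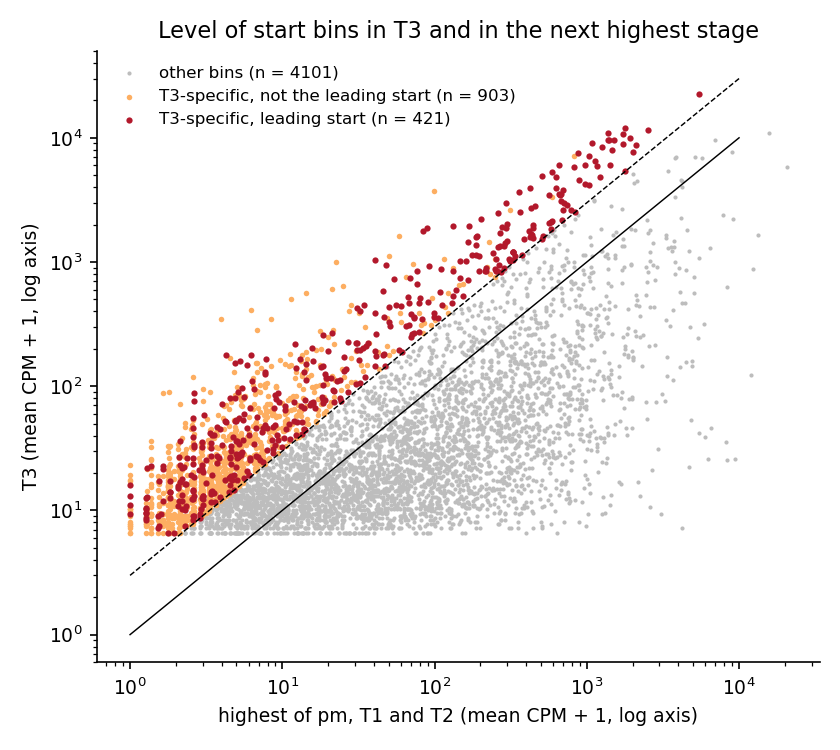
Mean level in T3 against the highest mean level among pm, T1 and T2 for the 5425 bins at 5 CPM or more in both T3 replicates, in CPM with 1 added on log axes. Each point is a bin, the solid line marks equal levels and the dashed line the 3-fold rule; the 421 leading starts among the T3-specific bins (dark red) reach the highest levels.

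The strongest T3-specific start lay at chr12:351001-351100 on the minus strand. It held 18541 and 26159 CPM in the T3 replicates. Its level was 4234 and 6738 CPM in pm, 1212 and 455 CPM in T1, and 500.0 and 275 CPM in T2. It was therefore also the strongest member in pm, and both meiotic pools lay below pm in each replicate. Its molecules were short, with a median distance from TSS to TES of 528 nt in T3. At this start 63.2% of the T3 molecules began at a single nucleotide, position 351066, and 99.2% ended within 100 nt of position 350536.

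The next 9 members by level were also highest in pm among the other stages, by the mean of the replicates. At chr2:575601-575700 on the minus strand, the T3 replicates held 11503 and 12387 CPM, the pm replicates 2518 and 1064 CPM, the T1 replicates 650.0 and 661 CPM, and the T2 replicates 181 and 460 CPM. At chr7:316201-316300 on the plus strand, T3 held 11591 and 11704 CPM against 3652 and 1404 CPM in pm, 868 and 968 CPM in T1, and 409 and 1090 CPM in T2. In both bins every T3 value was above every other value, while T1 and T2 overlapped at the second. The other 7 were at chr2:587201-587300, chr12:761701-761800, chr16:300901-301000, chr12:460701-460800 and chr4:244401-244500 on the plus strand and at chr13:116901-117000 and chr15:234301-234400 on the minus strand. Their T3 means were 9040 to 10941 CPM, with ratios to the next stage of 5.12 to 8.34. All 10 were the leading start of their 3′ region in T3, and also by the highest level in any other stage. Their molecules spanned a median of 528 to 1183 nt.

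**Figure D2:**
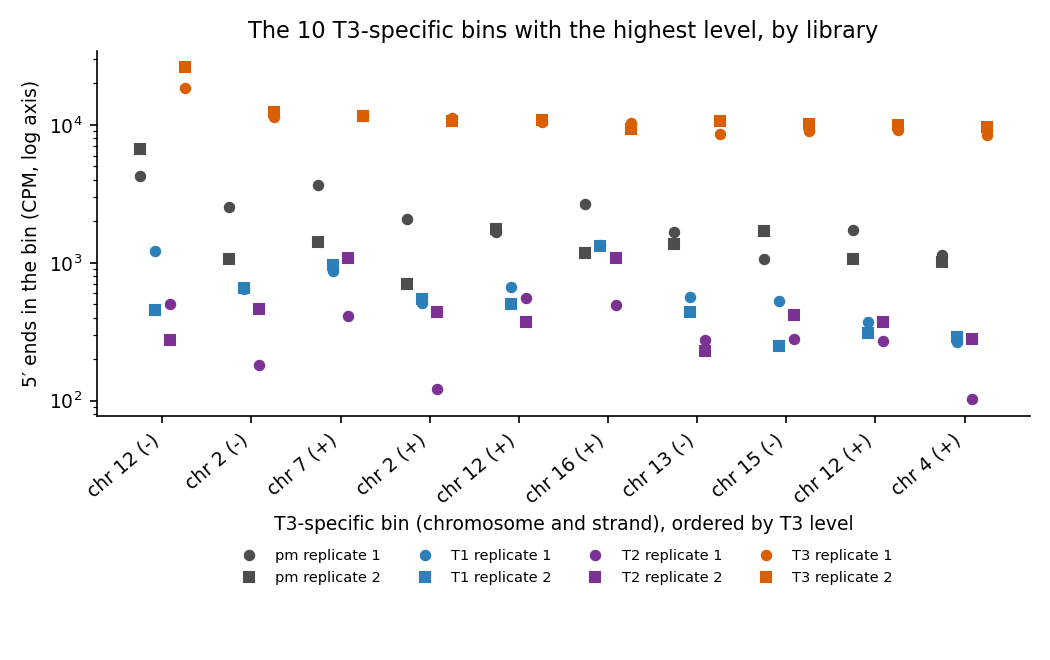
Level of 5′ ends (CPM, log axis) in each of the 8 libraries for the 10 T3-specific bins with the highest T3 level, named by chromosome and strand. Circles are replicate 1 and squares replicate 2; in every bin both T3 libraries are above the pm, T1 and T2 libraries, and the pm means are the next highest.

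Over all members, pm was the next highest stage for 843 (63.7%), T1 for 330 (24.9%) and T2 for 151 (11.4%). The median level of a member was 2.79 CPM in pm, 1.62 CPM in T1 and 0.94 CPM in T2, against 26.9 CPM in T3. Most members were thus weak in the other stages, but few were silent. The highest member in T1, at chr15:425701-425800 on the plus strand, held 9104 and 8484 CPM in T3, 2527 and 1427 CPM in pm, 2046 and 2178 CPM in T1, and 529 and 788 CPM in T2. In 389 the level was at least 5 CPM in both replicates of another stage, and only 23 had no molecule in any pm, T1 or T2 library. A count of 0 in these libraries says that a start was not detected at their depth.

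The ratio alone picked out weaker starts beside strong ones. The largest ratio, 87.8, was at chr2:587701-587800 on the plus strand, with 357 and 331 CPM in T3 and no more than 3.30 CPM in any other library. The third largest, 53.2, was at chr2:588101-588200, and the second at chr2:587301-587400. These 3 bins share the 3′ end at position 588389 with the strong start at chr2:587201-587300, which lies 500, 900 and 100 nt upstream of them. At the fifth, chr16:73501-73600 on the minus strand with a ratio of 45.6, the strong start of the same 3′ end was 300 nt upstream. The fourth, chr12:223101-223200 on the plus strand, held 53.7 and 125 CPM in T3 and at most 1.29 CPM elsewhere, 100 nt downstream of its leading start.

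At the edge of the rule the levels were low. The members nearest to the fold limit were chr12:951601-951700, with 22.2 and 7.24 CPM in T3 and a ratio of 3.01, and chr1:117601-117700, with 10.5 and 14.5 CPM and a ratio of 3.01. Just outside were chr5:46401-46500 on the minus strand, with 112 and 59.7 CPM and a ratio of 2.995, and chr12:775801-775900, with 11.7 and 9.05 CPM and a ratio of 2.99. At the level limit, chr2:411401-411500 on the minus strand was inside with 5.84 and 5.43 CPM, as was chr2:282901-283000 with 19.8 and 5.43 CPM. The bins chr1:64601-64700, with 4.67 and 5.43 CPM, and chr2:316401-316500, with 4.67 and 14.5 CPM, were outside because of T3 replicate 1. A further 463 bins had a ratio from 2 to under 3.

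Members were not spread evenly over the chromosomes. They made up 34.3% of the T3 bins (those at 5 CPM or more in both T3 replicates) on chromosome 12, 31.5% on chromosome 7 and 30.1% on chromosome 2, but 10.9% on chromosome 6 and 15.3% on chromosome 3. Of the members, 745 lay on the plus and 579 on the minus strand. Neighbouring bins share transcripts, and 848 members (64.0%) adjoined another member on the same strand.

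Grouping by 3′ end reduced the 1324 bins to 531 regions, of which 278 held a single member and 86 held 5 or more. The leading start of a region was taken as the bin with the highest T3 level among starts of molecules that ended within 100 nt of the bin's most frequent 3′ position. By this measure 421 members were leading starts, and they held 86.0% of the members' T3 level. Their median was 90.9 CPM in T3, 10.9 CPM in pm, 5.98 CPM in T1 and 5.02 CPM in T2. Another 720 members lay downstream of a leading start, at a median distance of 500 nt, and 183 lay upstream, at a median of 300 nt.

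The median T3 level of the secondary starts was alike on both sides, at 20.5 CPM downstream and 18.0 CPM upstream, while their level relative to the leading start differed. Counting only molecules with the shared 3′ end, a downstream member had a median level of 1.63% of its leading start, and an upstream member 38.1%. Downstream members held 10.1% and upstream members 3.95% of the members' T3 level. In 596 of the 720 downstream and 159 of the 183 upstream members the leading start was itself T3-specific. Of the members 31.8% were leading starts and 54.4% lay downstream of one, and of the 4101 other T3 bins 58.4% and 26.4%. These shares were not tested, since the rule used the T3 level.

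**Figure D3:**
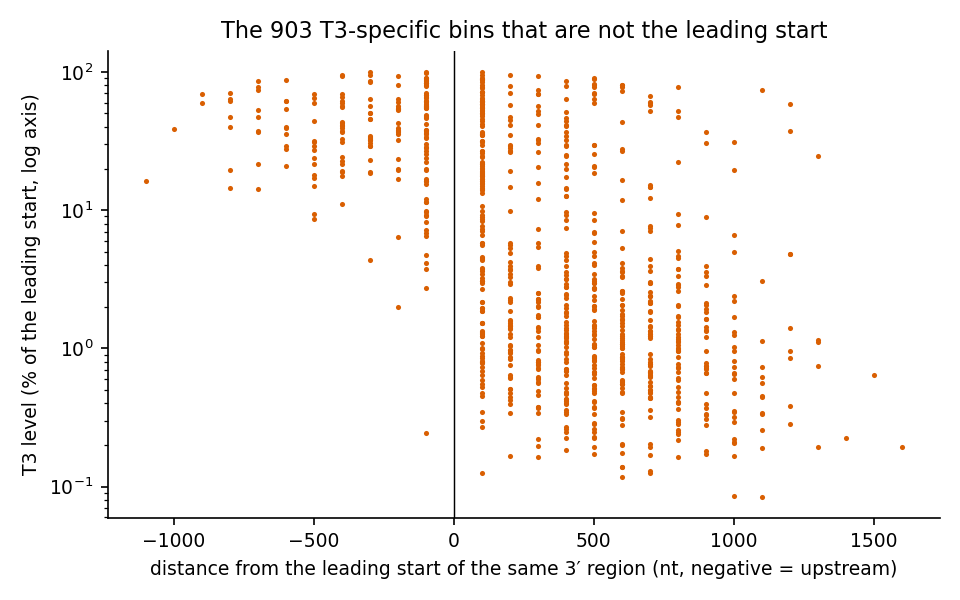
T3 level of the 903 T3-specific bins that are not the leading start, as a percent of the leading start of the same 3′ region (log axis), against the distance from it in nt in steps of a 100-nt bin, negative upstream. Each point is a bin; the downstream points are centred near 1.63% and the upstream points near 38.1%.

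Shortened RNA or cDNA also starts downstream of a TSS, as the spike-ins show, so that share was measured per library. In the 3′ regions led by a member, 4.44% and 5.20% of the T3 molecules started more than 100 nt downstream of the leading start. The same share was 2.20% and 4.26% in pm, 5.26% and 3.08% in T1, and 3.90% and 5.99% in T2. The stages overlapped, and regions led by other T3 bins gave 4.96% and 6.03% in T3. How much of the downstream members' level comes from shortened molecules was not tested.

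The position of a T3-specific start within its bin was mostly that used in the other stages. Among bins with at least 10 molecules on both sides, the most frequent 5′ nucleotide of T3 lay within 5 nt of that of pm in 74.5% of 495 members, of T1 in 75.5% of 453 and of T2 in 82.3% of 294. The T3 replicates matched each other to this extent in 71.6% of 830 members. Stages were compared with both replicates pooled, but the T3 replicates as single libraries, so their positions rest on fewer molecules. By this measure, taken over differing sets of bins and at differing depth, the members' shares against other stages were not below that between the replicates. For leading members the shares were 83.3%, 83.1% and 83.5% against pm, T1 and T2, and 84.0% between the T3 replicates. The most frequent 3′ position was within 20 nt in 86.9%, 82.1% and 87.8% of the members for pm, T1 and T2, and in 86.0% between the T3 replicates. For the other T3 bins the 5′ shares were 71.5%, 73.7% and 73.5%. With 20 molecules required, the members' shares were 82.2%, 82.7% and 88.2%, and 79.5% between the replicates.

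The leading starts were also mostly those that led the same 3′ end in the other stages. In 330 of the 421 leading members (78.4%) the same bin also had the highest level in any of the other stages. Among the 263 where the leading start of the other stages held 5 CPM or more, the same bin led in 221 (84.0%) and a neighbour in 18. In 15 that start lay more than 100 nt upstream and in 9 more than 100 nt downstream, 9.13% in all. Among 2299 leading starts outside the members, 2.91% differed by that distance. The rule used the T3 level, so the last 2 shares were not tested against each other.

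In 10 of these 24 loci the start that led in another stage was itself higher in T3, counting molecules with the shared 3′ end, and in 14 it was lower. The 3 with the most T3 molecules were of the first kind, and the values that follow are of all molecules in a bin. At chr4:355301-355400 on the minus strand, T3 held 1335 and 1553 CPM, while the other start 400 nt upstream held 809 and 802 CPM in T3 and 139 and 320.0 CPM in pm. At chr2:82201-82300 on the minus strand, T3 held 1111 and 793 CPM, and the other start 300 nt upstream 1092 and 721 CPM. At chr5:368201-368300 on the plus strand, T3 held 692 and 482 CPM, and the start 400 nt upstream 740.0 and 387 CPM. Here the longer and the shorter isoform were both made in T3, and in replicate 1 the upstream start was the higher one.

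In 9 of the 24 the start that led in another stage was at least 2-fold lower in T3, with 1 CPM added, and the 3 with the most T3 molecules are described here, chosen after their values were seen. At chr13:733801-733900 on the plus strand, T3 held 84 and 43 molecules (98.0 and 77.9 CPM), and each other library at most 6. The bin 200 nt downstream, which ended at the same TES at position 735120, held 104 and 20 molecules in T2, 26 and 28 in T1, and 0 and 2 in pm, but 1 and 0 in T3. The start of the meiotic pools was at or near 0 in T3, and the T3 start makes a longer molecule. At chr15:454401-454500 on the plus strand, T3 held 52 and 56 molecules (60.7 and 101 CPM). The start 800 nt upstream held 40.1 and 61.3 CPM in T1 and 30.6 and 11.6 CPM in T2, against 5.84 and 7.24 CPM in T3. Part of its molecules had other 3′ ends. With the shared 3′ end alone, its highest stage mean outside T3 was 20.3 CPM and its T3 mean 1.17 CPM. Here the T3 molecule was the shorter one, and the downstream start had been used in pm at 8.25 and 25.9 CPM. At chr7:1001701-1001800 on the plus strand, T3 held 32.7 and 59.7 CPM, and the bin 300 nt upstream 6 and 3 molecules in T3 against 42 and 28 in T1, most of them with other 3′ ends.

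**Figure D4:**
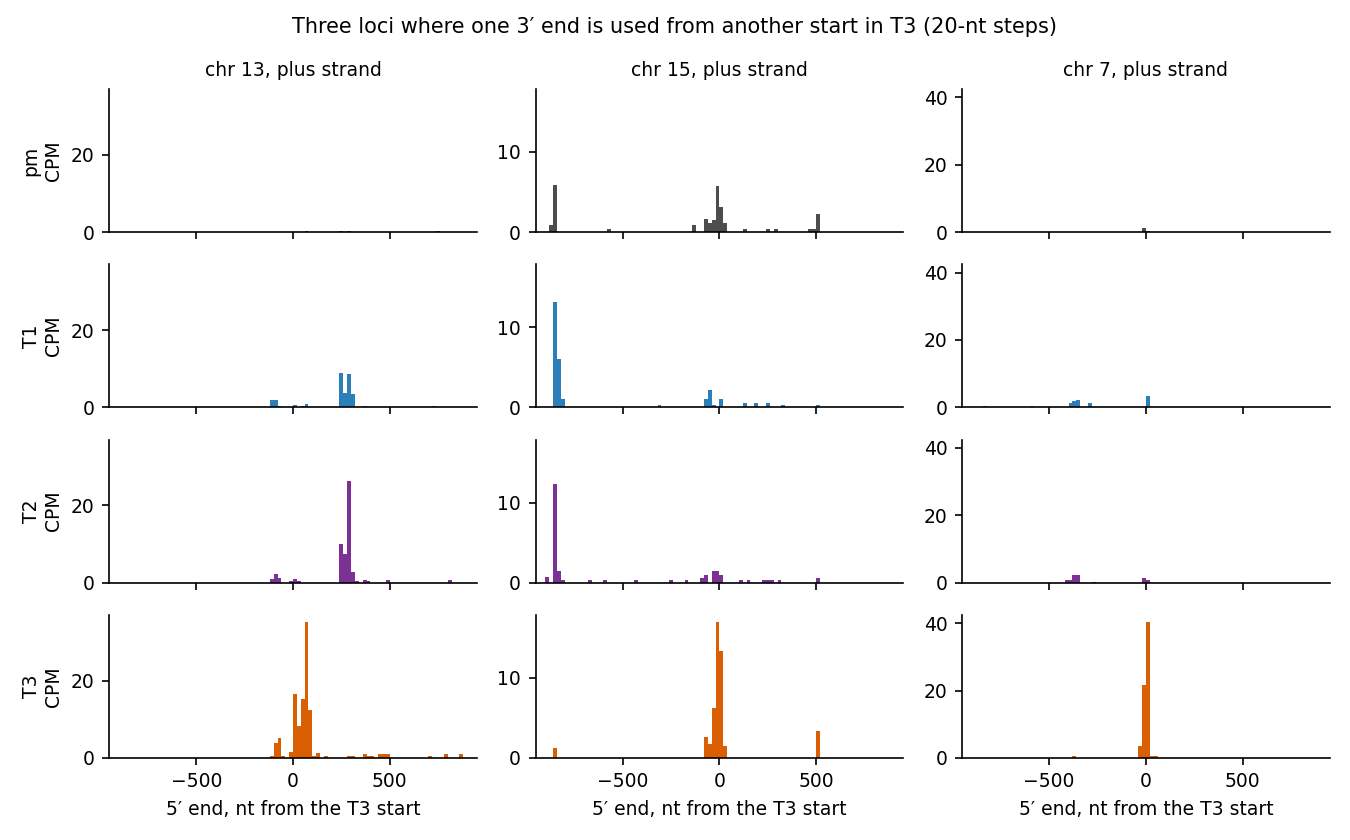
5′ ends of molecules that share a 3′ end (mean CPM of 2 replicates, 20-nt steps) against the distance from the most frequent T3 start, in pm, T1, T2 and T3 (top to bottom), at the loci on chromosomes 13, 15 and 7 described in the text. The meiotic start about 200 to 300 nt downstream on chromosome 13, about 800 nt upstream on chromosome 15 and about 300 to 400 nt upstream on chromosome 7 is nearly empty in T3.

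The T3 rule does not compare pm, T1 and T2 with each other. Differences among them were tested by limma voom over the 11405 bins that averaged 5 or more molecules a library. The rule does cap each of these stages against T3, so a bin raised strongly in T1 or T2 is less often a member. The few rises among members, their share of falls and their median change, beside those over all bins, are therefore in part set by the rule. Of the members, 783 could be tested and 541 held too few molecules. A member can reach that average through T3. With only the 2 stages compared in the filter and the fit, 475 members could be tested for T1 against pm (140 lower, 2 higher), 400 for T2 against pm (56 lower, 1 higher) and 362 for T2 against T1 (3 lower, 8 higher). The shares of all bins called under that setting are not given here, so these counts are not set against a background. A bin was called where the adjusted p (Benjamini-Hochberg) was under 0.05 and the change at least 2-fold. From pm to T1, 169 of the 783 members fell (21.6%) and 2 rose. Over all bins 9.73% fell and 11.2% rose. The median log2 change was -1.29 in the members and 0.09 over all bins, and 105 of the 338 leading members tested fell. The members' falls numbered 45 without T1 replicate 1, 61 without pm replicate 2, 82 without T1 replicate 2, 111 without T3 replicate 1 and 113 without T3 replicate 2.

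Starts of high T3 level were among those that fell on entry into meiosis. At chr10:108101-108200 on the minus strand, the level was 669.6 and 669.2 CPM in the pm replicates, 35.1 and 14.5 CPM in those of T1, 725 and 948 CPM in those of T2, and 2431 and 2643 CPM in those of T3. The start was nearly shut in T1 alone, with a log2 change of -5.16 ± 0.60 (SE) from pm to T1 (limma, adjusted p = 2.94e-05) and of 5.93 ± 0.59 from T1 to T2 (adjusted p = 2.08e-06). The bin chr11:445101-445200 on the plus strand, which is not a leading start, had 24 and 40 molecules in the pm replicates, none in either T1 replicate, 4 and 10 in those of T2, and 110 and 93 in those of T3 (limma, adjusted p = 7.87e-05 for T1 against pm). The bin chr12:350601-350700 on the minus strand, downstream of the strongest member, fell from 74 and 56 molecules in pm to 6 and 0 in T1 (limma, adjusted p = 0.00104).

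Both members that rose from pm to T1 were leading starts. At chr4:1078801-1078900 on the plus strand, pm held 46.2 and 16.8 CPM, T1 179 and 113 CPM, T2 33.6 and 41.3 CPM, and T3 794 and 695 CPM (log2 change 2.08 ± 0.67 from pm to T1, limma, adjusted p = 0.0359). At chr5:100501-100600 on the plus strand, pm held 46.2 and 93.9 CPM, T1 359 and 226 CPM, T2 136 and 134 CPM, and T3 2981 and 2987 CPM (log2 change 1.72 ± 0.59, adjusted p = 0.0485). In both bins every T1 value was above every pm value. Neither was called by limma with a replicate block, with no filter, or without pm replicate 2 or any one T1 or T3 library.

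From pm to T2 the direction was the same. Of the 783 members, 114 (14.6%) were lower in T2 and 3 higher, against 8.59% lower and 19.9% higher over all bins (limma, same limits), and the number lower was 66 without pm replicate 2. The median log2 change was -1.20 in the members and 0.31 over all bins. The leading start at chr14:56701-56800 on the plus strand fell from 150 and 168 CPM in pm to 3.60 and 2.58 CPM in T2 (log2 change -5.01 ± 0.81, limma, adjusted p = 0.000143), and held 774 and 1275 CPM in T3. The bin chr7:260001-260100 on the plus strand fell from 12 and 37 molecules to 0 and 0 (adjusted p = 0.000193), and chr12:350901-351000 on the minus strand from 10 and 107 to 0 and 2 (adjusted p = 0.00309). The 3 that rose were leading starts. At chr13:888001-888100 on the minus strand pm held 14.8 and 8.39 CPM, T1 49.4 and 32.2 CPM, T2 95.9 and 112 CPM, and T3 423 and 279 CPM (log2 change 3.66 ± 0.74 from pm to T2, adjusted p = 0.00103). The rises at chr2:274401-274500 on the minus strand and chr8:348601-348700 on the plus strand had log2 changes of 1.93 ± 0.63 and 1.81 ± 0.56.

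Between the meiotic pools few members were called. From T1 to T2, 18 of the 783 rose (2.30%) and 9 fell (1.15%), against 15.4% and 3.11% over all bins (limma). The split depended on the scaling. With library totals 5 rose and 51 fell, and with the upper quartile 5 rose and 33 fell, as the median over all bins moved from 0.10 to -0.76 and -0.60 on the log2 scale. No direction is therefore given for the members as a group between T1 and T2. The total of 27 calls ranged from 6 without T1 replicate 1 to 49 without T2 replicate 1. Besides chr10:108101-108200 and its neighbour chr10:108001-108100, the largest rise was at chr11:445101-445200, and the largest falls were at chr2:379201-379300 on the minus strand, chr15:425801-425900 and chr8:70301-70400 on the plus strand, none of them leading starts. Each of these 3 held 0 or 1 molecule in either T2 library, after 6 to 46 in the T1 libraries. The bin chr2:379201-379300 reached the molecule limit only with its 38 and 18 T3 molecules.

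**Figure D5:**
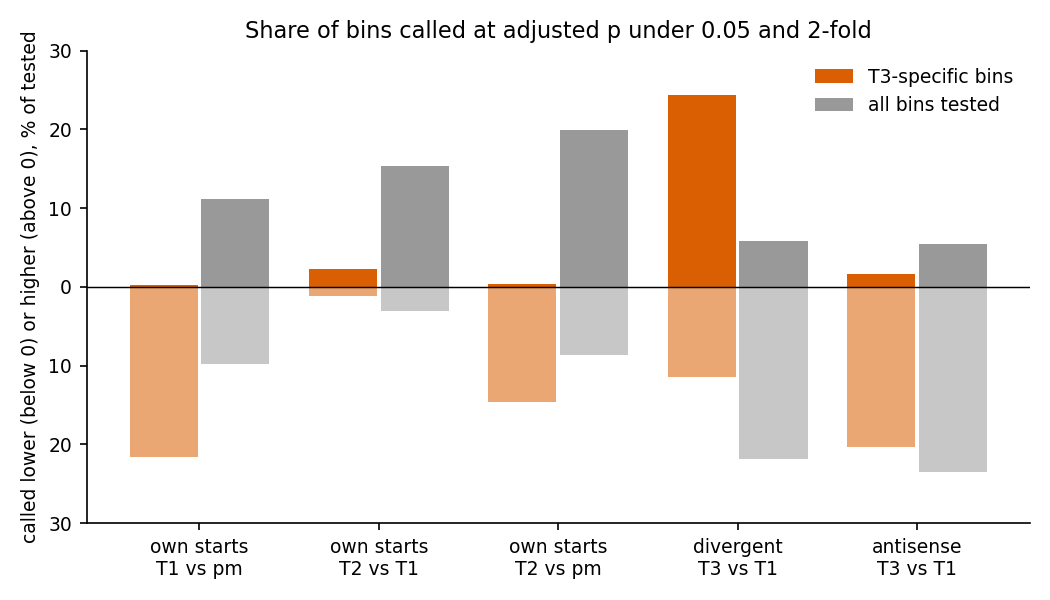
Share of bins called higher (above 0) or lower (below 0) at adjusted p under 0.05 and at least 2-fold (limma voom), in percent of those tested, for the T3-specific bins (orange) and all bins tested (grey). The first 3 pairs are the starts of the bins themselves; the members' falls from pm are 21.6% to T1 and 14.6% to T2, and the last 2 pairs are the opposite-strand starts upstream, counted without T3-specific bins, and inside the transcript.

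Other starts that feed the same 3′ end were then counted, since the rule did not count them at that bin. These were molecules that ended within 100 nt of the member's TES and began upstream of the bin, past its neighbour, leaving out any that began in a T3-specific bin. Enough molecules were present for 376 of the 1324 members, and 271 of these (72.1%) were higher in T3 than in T1, 163 (43.4%) than in pm and 276 (73.4%) than in T2. Over all 5439 bins tested 14.0%, 10.8% and 15.2% were higher, while 38.6%, 17.4% and 42.3% were lower (limma). Only 33 leading members had such an upstream start to test. Of these, 20, 14 and 20 were higher than in T1, pm and T2. A member can pass the molecule limit through T3 alone. With the limit set on pm, T1 and T2 only, 228 of 324 members were higher than in T1 (70.4%, against 13.1% of all bins). Of the 324, 135 were higher than in pm (41.7%, against 10.3%) and 234 than in T2 (72.2%, against 14.3%). The 324 lay in 145 3′ regions. Several members of a region share the same upstream start, so they are not separate cases. A member downstream of its leading start may also hold shortened molecules of these upstream starts, so its level and theirs are not independent. How much of its level comes from them was not tested.

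The counts against pm rested most on T3 replicate 1, at 22 without T3 replicate 1, 89 without pm replicate 1 and 98 without T3 replicate 2. Against T1 and T2 they were 164 and 162 without T3 replicate 1. With member starts included, 716 of 755 were higher than in T1 (94.8%, against 21.8% over all bins), 691 than in pm (91.5%, against 21.5%) and 716 than in T2 (94.8%, against 23.2%), which largely counts the members again. Over all bins 36.5%, 17.8% and 39.5% were lower.

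The largest such rise against T1 was upstream of a weak member at chr8:439201-439300 on the plus strand. The upstream starts held 1235 and 1541 CPM in T3, 938 and 1733 CPM in pm, 10.4 and 5.20 CPM in T1, and 4.20 and 3.87 CPM in T2 (log2 change from T1 to T3 8.36 ± 0.68, limma, adjusted p = 1e-06). These starts were strong in the pm and T3 pools and weak in T1 and T2, and the member downstream of them, at 12.2 CPM in T3, met the 3-fold rule against pm. The next largest, upstream of chr4:323901-324000 and chr4:337201-337300, had 30 and 9 and 767 and 423 molecules in T3 against 0 and 0 and 42 and 25 in T1. Those of chr4:323901-324000 held 0 and 4 molecules in pm and 0 and 1 in T2. They passed the molecule limit only through T3, so their rise is a description. At the leading start chr15:767901-768000 on the plus strand, with 1951 CPM in T3, the upstream starts were lower in T3 than in T2, with 101 and 12 molecules in T2 and 0 and 3 in T3 (log2 change -4.04 ± 1.21, limma, adjusted p = 0.0111). The upstream starts of chr13:83601-83700 on the minus strand were the only ones lower than in T1, with 224 and 153 molecules in T1 and 8 and 6 in T3 (log2 change -2.73 ± 0.81, adjusted p = 0.0127).

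Many yeast promoters start transcripts in both directions, so 5′ ends on the opposite strand in the 500 nt upstream of each member were counted. Enough molecules were found at 150 of the 1324 members. There, 57 were higher in T3 than in T1 and 15 lower, against 9.29% higher and 21.8% lower over all bins. In 43 the divergent starts were higher than in pm and in 12 lower, against 7.33% and 19.8% of all bins, and in 60 higher than in T2 and in 36 lower, against 9.34% and 45.2%. A member can pass the molecule limit through T3. Part of the divergent starts were T3-specific themselves, and so high in T3 by the rule. Leaving those out, 30 of 123 were higher than in T1 and 14 lower (background 5.79% and 21.8%), 16 higher than in pm and 11 lower (4.11% and 19.8%), and 33 higher than in T2 and 34 lower (6.07% and 46.2%). The number higher than in T1 was then 12 without T1 replicate 1 or T3 replicate 2 and 13 without T3 replicate 1, and the 27 calls against pm were 2 without T3 replicate 1. With library totals, and T3-specific starts included, 42 were higher than in T1 and 41 lower, so rises and falls were near equal in number. The shares over all bins with that scaling are not given here, so these counts are not set against a background.

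Divergent partners went both ways at single loci. The leading start chr16:151101-151200 on the plus strand held a mean of 132 CPM in T3. Upstream of it, opposite-strand starts outside T3-specific bins numbered 13 and 9 molecules in pm and 0 and 0 in T1. In T2 they numbered 0 and 1, and in T3 13 and 19. They passed the molecule limit only through T3, so these counts are a description. The leading start chr7:1041201-1041300 on the minus strand held a mean of 260.4 CPM in T3. Its partner held 260 and 212 molecules in T1, 82 and 46 in T2, 1 and 1 in pm, and 2 and 0 in T3. The log2 change from T1 to T3 was -5.75 ± 0.79 (limma, adjusted p = 0.000321). At chr2:449901-450000 on the plus strand the partner had 131 and 35 molecules in T1 and 136 and 51 in T2, and 0 and 0 in both pm and T3 (adjusted p = 0.000614 against T1). In these last 2 loci the opposite-strand starts were present in the meiotic pools and at or near 0 in T3, where the member was high by the rule. At the leading start chr14:502301-502400 on the minus strand, whose partners include T3-specific bins, the partners held 154 and 194 molecules in T3 against 8 and 4 in T1 (log2 change 6.66 ± 0.81, adjusted p = 7.67e-05).

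Antisense starts inside the members' transcripts were rare enough that 59 members could be tested. From T1 to T3, 12 of them fell (20.3%) and 1 rose, against 23.5% and 5.41% over all bins (limma). Against pm 18 fell (30.5%) and 4 rose, against 31.9% and 6.48%, and against T2 38 fell (64.4%) and 1 rose, against 47.6% and 5.91%. The shares against T1 and pm were close to the background. The 59 members lay in 28 3′ regions, and members of a region can share antisense starts, so they are not separate cases. Of 24 leading members, 14 fell against T2 (58.3%) and 1 rose. Without T3 replicate 1, limma called 0 against T1 and 0 against pm, with 9 and 17 members at an unadjusted p under 0.05. Without T2 replicate 1, 13 members were called against T2. At the leading start chr14:56701-56800, antisense molecules numbered 173 and 44 in T2, 90 and 72 in T1, and 2 and 1 in T3 (log2 difference of T3 from T2 -4.69 ± 0.83, adjusted p = 0.000281). The sense start there held 3.60 and 2.58 CPM in T2, 15.4 and 8.31 CPM in T1, and 774 and 1275 CPM in T3. At chr12:476601-476700 on the minus strand, antisense molecules numbered 21 and 25 in pm, and 0 and 0 in both T2 and T3 (adjusted p = 0.00101 for T3 against pm).

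By bin, the members spanned a median of 565.5 nt from TSS to TES and the other T3 bins 796 nt. Counted by molecule, the median span was 930 nt and 896 nt in the T3 replicates, against 900.0 nt and 841 nt for the other bins. With each pair of 5′ and 3′ positions counted once the members' medians were 870.0 nt and 820.0 nt and those of the other bins 881 nt and 825 nt, so the order turned. With 2 replicates a stage an exact permutation test cannot reach 0.05, and none was run. By bin again, leading members spanned a median of 775 nt, against 839 nt for other leading starts, downstream members 425 nt and upstream members 924 nt.

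No first read was aligned with a gap over 100 nt in any library, and the longest covered 70 nt of the genome, so spliced 5′ ends were not seen directly. In some bins, however, first reads of different 5′ positions stopped at one shared nucleotide. This measure, added after the data were seen, took first reads under 66 nt that ended at one position, from 3 or more 5′ positions. A bin was counted where these made up at least 50% of all its T3 first reads. It was met in 73 of the 560 members with at least 50 T3 molecules (13.0%, exact 95% interval 10.4% to 16.1%, counting error only) and in 78 of 1449 other T3 bins (5.38%, 4.28% to 6.67%). Among leading starts it was met in 49 of 283 members (17.3%) and in 63 of 1126 others. The intervals cover the count of bins, neighbouring bins share transcripts, and no test was made.

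The 73 bins held 13.4% of all T3 molecules. At chr2:575601-575700, 93.1% of all T3 first reads stopped at position 575582, 31 nt inside the TSS, as did 92.0% in pm, 91.2% in T1 and 90.4% in T2. At chr7:371701-371800 on the minus strand, with a mean of 5997 CPM in T3, 98.1% stopped 33 nt inside the TSS. The shared stop was also present in the other stages, with at least 50% of the reads in 59 of 65 bins in pm, 60 of 65 in T1 and 57 of 64 in T2 that had 10 molecules. The median share of reads at that position was 83.2% in T3, whose reads chose the bins, and 78.1% in pm, 76.7% in T1 and 75.6% in T2. What ends the alignments there was not tested.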

How the data were processed

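TIF-seq molecules of 8 libraries were analysed, 2 replicates in each of 4 pooled stages. According to the methods, the authors aligned read pairs to an SK1 assembly, keeping those that mapped uniquely within a chromosome, and the processing notes name cutadapt 1.16, STAR 2.5.3a and bedtools. In the deposited files each line is a molecule with its positions, a constant alignment score and its strand. The score was not used, and no deposited value is a count.

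Molecules on the 16 chromosomes were counted here in 100-nt bins by 5′ end and given as CPM. Tests used limma 3.58.1 (voom, R 4.3.3) with median-of-ratios scaling of the library sizes, all stages in 1 fit, a mean of at least 5 molecules, and Benjamini-Hochberg adjustment over all bins. The code was tested on simulated counts with known changes. Python 3.11.15, numpy 2.4.6, pandas 2.3.3 and scipy 1.17.1 did the rest. Labels do not say whether replicates were separate cultures, so p-values measure the spread between these libraries.

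The members, lists and tests were chosen with earlier results of these data known. Bins named are the 10 highest in T3, the 5 largest ratios, those nearest each limit, up to 3 largest called rises and falls per test, the 3 highest in another stage, and 3 loci with moved starts; others are said to be chosen later. Of the called rises and falls, those sharing a locus with one described are left out. No annotation or sequence of the SK1 assembly was used here, so no gene or base is named.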

Additional observations from a re-analysis of the deposited data

Results flagged for a closer look

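Across the 8 libraries 14464 molecules belonged to spike-in RNAs outside the 16 chromosomes. They enter no comparison of stages, and they are listed because they lie outside the measurement described here. Their 5′ ends give the share of spike-in molecules that begin at the expected position. This share differed between the LYS and PHE spike-ins, and whether it holds for yeast RNA was not tested.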

How the results depend on the processing

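The number of T3-specific bins, 1324, was 780 with 5-fold required, 815 with 5 CPM added before the ratio and 2094 with position pairs counted once, and 1256 to 1920 with a library left out (the highest without T3 replicate 1). Their share of T3 molecules, 49.8%, was 57.2% with 2-fold, 32.5% with 5-fold, 57.2% with the median of ratios and 33.6% with pairs counted once, and 49.2% to 50.6% with a library left out. Requiring 20 molecules moved the shares of members with a T3 start within 5 nt to 82.2% (pm), 82.7% (T1), 88.2% (T2) and 79.5% (T3 replicates), and counting pairs once moved the members' mean span in T3 from 913 nt to 845 nt. The 73 bins with a shared read end were 46 at 80% of reads.

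Calls among members for T1 against pm were 171, 112 with limma-trend and 45 to 237 with a library left out. For T2 against T1 they were 27, then 56 with library totals, 13 with a mean of 20 molecules, 42 with no filter, 17 with limma-trend, 11 with only the 2 stages fitted, and 6 to 49. For T2 against pm they were 117, then 181 with library totals, 204 with the upper quartile, 57 with only the 2 stages, and 67 to 158. Upstream starts of the same 3′ region gave 644 to 732, 565 to 707 and 658 to 734 calls (T3 against T1, pm and T2) with a library left out, and without T3-specific starts 164 to 289, 22 to 199 and 167 to 299, with 83 against pm by library totals.

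Divergent starts gave 72, 55 and 96 calls against T1, pm and T2. A mean of 20 molecules gave 39, 26 and 46, a window of 300 nt 38, 22 and 47, no filter 164 against T1, and leaving out a library 44 to 91, 16 to 79 and 59 to 100. Without T3-specific starts the ranges were 20 to 65, 2 to 49 and 35 to 76. Antisense starts gave 13, 22 and 39 calls. A mean of 20 molecules gave 4, 3 and 4, no filter 66, 40 and 64, and against T1 library totals gave 24, limma-trend 23 and only 2 stages 20. Leaving out a library gave 0 to 20, 0 to 22 and 13 to 45. The cause of these shifts was not tested, beyond the fewer bins or libraries that some settings leave.

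Replicate numbers did not pair the samples (correlations of deviations from -0.36 to 0.16 over the 6 pairs of stages). With a replicate block T1 against pm gave 141 calls among members, and no other count moved by over 1.5 times. At this depth weak starts limit the results, since 494 members rest on fewer than 10 molecules in a T3 library. The alternatives without T3-specific starts and the 80% limit were chosen after seeing the data.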
